A study of Mus musculus with 30 samples.

Results

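Loss of 1 copy of Rnf12 was compared with the wild-type state in undifferentiated female mouse embryonic stem cells (mESCs), using RNA sequencing of 4 of the series' 30 samples. Rnf12 is an X-linked gene that the annotation lists as Rlim. The groups were XX wild type (2 libraries) and XX Rnf12+/- (2 libraries), chosen by their labels. The wild-type line, F1 2-1, is a hybrid of 129/Sv, called Mus here, and Cast/Ei, called Cast, so reads over bases that differ between the strains could be assigned to an allele. The study made 2 independent Rnf12+/- lines from it, the first with CRISPR guides to an intron and the 3′ UTR of Rnf12. The cells were grown in serum with LIF on irradiated mouse embryonic fibroblasts, which were depleted by pre-plating. The labels do not say which line gave the XX Rnf12+/- libraries. They are taken here as the first founder, the parent of most deletion lines of the series, whose chromosome 12 allelic shares lie close to theirs. The library names of the 4 share a prefix, which deletion E shares and the other deletion lines do not. Because the XX Rnf12+/- libraries are taken as 1 line, the missing Rnf12 copy and any other difference between the lines cannot be told apart. The study calls the replicates plotted for XX cells and for its deletion lines independent clones, and its methods take the XX level from XX Rnf12+/-. The labels do not say whether the replicates of either group here were separate clones or cultures. The p-values therefore measure only the spread between these samples, which may be technical.

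RNF12 is an E3 ubiquitin ligase, an enzyme that marks other proteins for destruction. Its best known target is REX1 (gene Zfp42), which represses Xist, the non-coding RNA that coats and silences an X chromosome when female cells differentiate. In undifferentiated female mESCs both X chromosomes are active, and such cells are known for low DNA methylation. That mark otherwise helps to keep germline genes silent and to set the active copy of imprinted genes. The gene lists described here were built around these processes, the pluripotency network and the signalling pathways that feed it. They were chosen with earlier results of these data known, so the shares called in them are descriptions and not independent tests.

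The 4 libraries held 20403739 to 20914826 counts each, of which 12.4 to 12.5% were assigned to an allele. Levels are given as TPM, a share of the library's transcripts, computed from the counts and the exon length of each gene. Libraries with the same replicate number moved together in both groups. Over 11693 genes with a mean above 5 TPM, the difference between replicate 2 and replicate 1 in wild type and the same difference in XX Rnf12+/- had a correlation of 0.737, which is a value across genes and not across replicates. The 24 fibroblast markers summed to 1933 and 671 TPM in wild-type replicates 1 and 2, and to 2633 and 772 TPM in XX Rnf12+/- replicates 1 and 2. Replicate 1 therefore carried 2.88 times as much fibroblast marker RNA as replicate 2 in wild type and 3.41 times as much in XX Rnf12+/-. Of the 24 markers 5 were called higher (Fn1, Col6a1, Lum, Mmp2 and Thy1), which was 20.8%, against 5.38% over all genes. All 24 had a log2 fold change above 0, with a minimum of 0.03 and a median of 0.28. The groups did not overlap in 1 of the 24, against 37.3% of all genes. DESeq2 with the replicate block called 1 of them. Every one of the markers gave reads in each library. Glycolysis and hypoxia genes went the other way, with sums of 11104 and 13805 TPM in wild type and 10614 and 14664 TPM in XX Rnf12+/-. The comparison was made with replicate number as a block, that is, within pairs of the same number.

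Of 16944 tested genes, 911 were called higher in XX Rnf12+/- (5.38%) and 915 lower (5.40%), at an adjusted p under 0.05 in edgeR's quasi-likelihood test with the replicate block. Changes beyond 1 on the log2 scale were mostly falls, with 110 genes higher (0.649%) and 310 lower (1.83%). The median log2 fold change over all tested genes was 0.0064. The direction was the same in both replicate pairs for 1825 of the 1826 called genes, which the blocked test over 2 pairs largely fixes. In 1550 of the called genes the TPM values of the 2 groups did not overlap, as in 6321 of all tested genes (37.3%). The calls rest on the block. Without the replicate block the same test called 1 gene, Rhox5, with 1511 genes at an unadjusted p under 0.05, while DESeq2 with the block called 660 genes, all of them among the 1826. Chromosome 12 held 305 of the called genes and is described apart. On the other chromosomes 765 genes were called higher (4.69%) and 756 lower (4.64%).

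**Figure D1:**
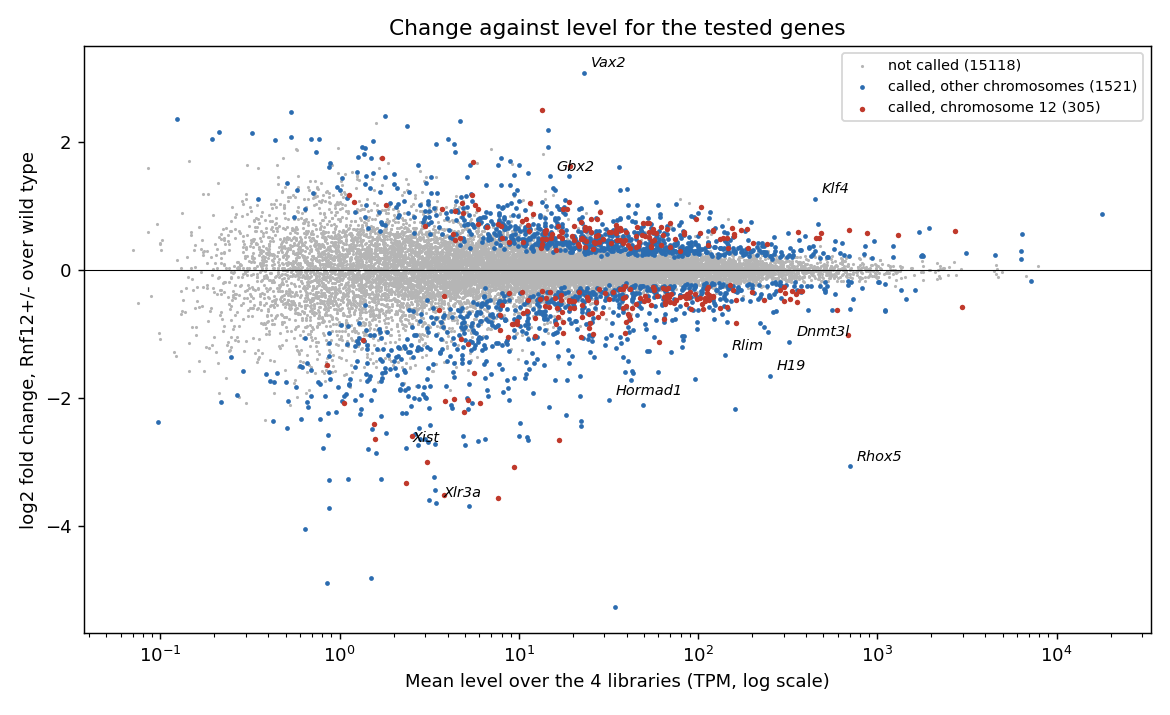
log2 fold change of XX Rnf12+/- over XX wild type (vertical axis) against the mean level over the 4 libraries in TPM (horizontal axis, log scale) for 16944 tested genes, with 1521 called genes of other chromosomes in blue, 305 of chromosome 12 in red and the rest in grey. Rhox5 stands out among highly expressed genes with a log2 fold change of -3.07, and the called falls reach further from 0 than the called rises.

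Rlim itself (chromosome X, minus strand) was at 211 and 193 TPM in the wild-type libraries and at 77.6 and 79.7 TPM in the XX Rnf12+/- libraries. The groups did not overlap, and the change was -1.33 on the log2 scale (SE 0.0556, adjusted p = 1.28e-05). The mean level was 38.9% of that in wild type. The allelic counts showed which copy was lost. In wild type 48.3% of 1487 and 48.1% of 1431 allelic counts were Mus, against 5.17% of 503 (95% Wilson interval 3.55 to 7.47%) and 6.64% of 557 (4.86 to 9.02%) in XX Rnf12+/-. Intervals given here cover counting error only. The Cast copy, which remained, gave 36.8 and 35.7 CPM (allelic counts scaled to the library total) in wild type and 23.1 and 25.5 CPM in XX Rnf12+/-, a ratio of means of 0.671. The level of the remaining copy was thus below wild type in both libraries.

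Xist was at 2.61 and 5.60 TPM in wild type and at 0.546 and 0.608 TPM in XX Rnf12+/-, a change of -2.78 on the log2 scale (SE 0.206, adjusted p = 1.49e-04). Its antisense partner Tsix, which opposes Xist on the same chromosome, was at 8.73 and 8.20 TPM against 13.0 and 13.5 TPM and was called higher (log2 fold change 0.67, SE 0.106, adjusted p = 0.00469). The groups did not overlap for either RNA. The study's methods count by strand, which would separate the overlapping pair, but which counter made these counts is not certain. Zfp42, the gene of the RNF12 target REX1, was at 821 and 722 TPM in wild type and 892 and 914 TPM in XX Rnf12+/- (log2 fold change 0.26, adjusted p = 0.0232). Of the 12 genes of the X inactivation centre and its regulators, 3 were higher (Tsix, Zfp42 and Spen) and 3 lower (Xist, Rlim and Yy1). Each was 25.0% of the list, against 5.38% higher and 5.40% lower over all genes. Spen, a cofactor of Xist-mediated silencing, changed by 0.27 on the log2 scale and Yy1, a chromosome 12 gene whose protein tethers Xist RNA, by -0.27. Jpx and Ftx, non-coding activators of Xist, were not called, with log2 fold changes of 0.11 and -0.40, and Jpx stayed under 1 TPM. Among 9 tested RNF12 substrates and partners, Zfp42 and Ldb1 were called, both higher (22.2%, against 5.38% over all genes). Ldb1, a LIM-domain cofactor, rose from 149 and 141 TPM to 176 and 176 TPM (log2 fold change 0.31, adjusted p = 0.00805). The other 7, among them Smad7 and Terf1, had log2 fold changes of -0.04 to 0.30 and were not called.

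**Figure D2:**
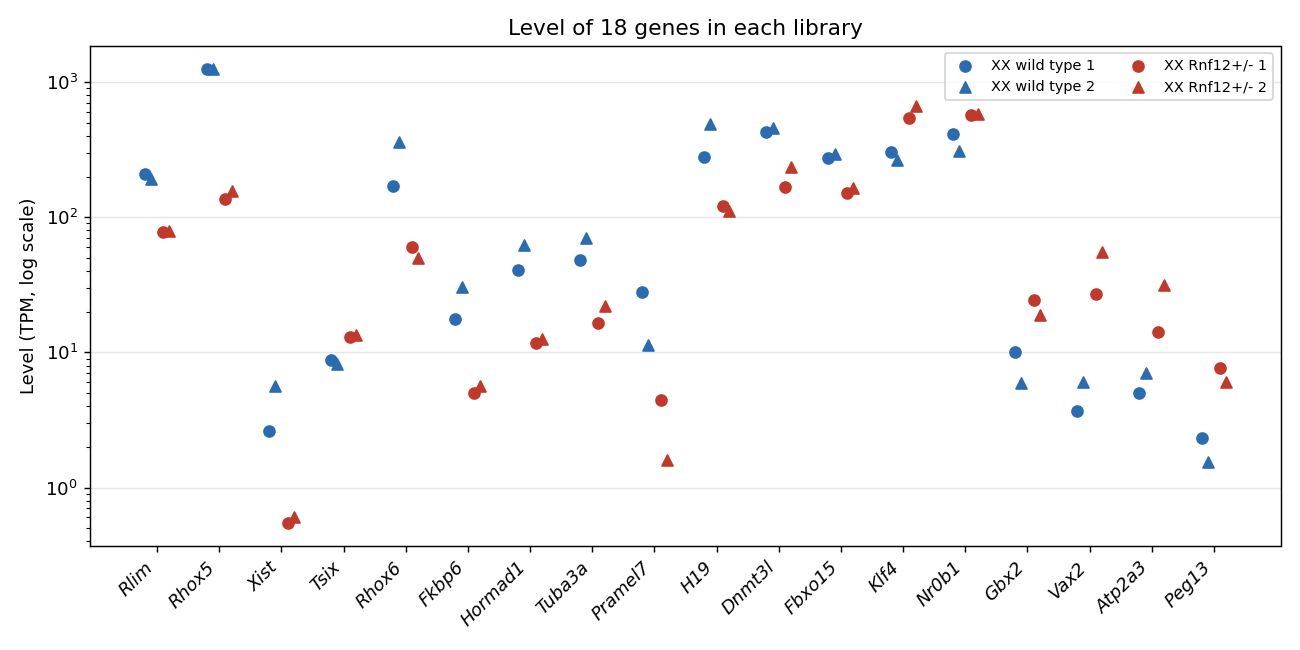
Level in TPM (vertical axis, log scale) of 18 genes in each of the 4 libraries, with wild type in blue, XX Rnf12+/- in red, circles for replicate 1 and triangles for replicate 2. Rhox5 sits at 1248 and 1260 TPM in wild type and at 137 and 157 TPM in XX Rnf12+/-, and Vax2 at 3.69 and 6.05 against 27.1 and 55.1 TPM.

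Around Rlim, 21 other genes within 1 Mb passed the filter, and 4 of them were called. Besides Xist and Tsix, these were Nexmif, a neuronal gene, at 45.4 and 39.2 TPM in wild type and 29.2 and 18.5 TPM in XX Rnf12+/- (log2 fold change -0.83, adjusted p = 0.00125), and the non-coding 4930519F16Rik (-1.04). The remaining 17 were not called and had log2 fold changes of -0.87 (Cdx4) to 0.53 (Uprt). Over all genes 5.38% were called higher and 5.40% lower, and on the X chromosome 4.07% and 13.5%.

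On the X chromosome 28 of 688 tested genes were higher (4.07%) and 93 lower (13.5%), against 5.40% lower over all genes. Of the falls, 43 were beyond 1 on the log2 scale, as were 4 of the rises. The median log2 fold change of 388 protein-coding X-linked genes above 5 TPM was -0.02, with 24 higher and 65 lower. Without Rlim, the Mus share of the allelic counts of these genes was 52.8% and 51.0% in wild type and 55.0% and 52.3% in XX Rnf12+/-. Replicate 1, with more fibroblast marker RNA, had the higher Mus share in both groups, and the part of fibroblasts in the shares was not tested.

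Among X-linked protein-coding genes that reached 2 TPM in the higher group, the largest fall was that of Xlr3a, of a lymphocyte-regulated gene family that includes imprinted members. It was at 3.85 and 8.97 TPM in wild type and 0.242 and 0.765 TPM in XX Rnf12+/- (log2 fold change -3.64, SE 0.285, adjusted p = 1.93e-04). All 5 tested Xlr genes were called lower, against 5.40% over all genes and 13.5% on the X chromosome. Among them, Xlr5c had a log2 fold change of -3.27 and Xlr5a, which stayed under that 2 TPM level, had -4.90. Members of this family are near-identical, so reads may be split among them. Magea4, of a cancer and testis antigen family, had values of 1.73 and 3.37 TPM against 0 and 0.688 TPM and was called lower (adjusted p = 0.034). 1700080O16Rik, 3830417A13Rik and 1700013H16Rik fell by 3.24, 2.73 and 2.73 on the log2 scale. None of these, Magea4, Xlr3a or Xlr5c reached more than 10 counts, the filter for testing being 10, in both XX Rnf12+/- libraries. They were tested through wild type, so a value below 0 is partly fixed by the filter. The largest X-linked rises were smaller. Slc38a5, an amino acid transporter gene, was at 8.84 and 3.07 TPM in wild type and 21.0 and 11.8 TPM in XX Rnf12+/- (log2 fold change 1.51, adjusted p = 0.00157), and Ube2dnl1, Sox3, Nr0b1 and Elf4 rose by 1.07, 1.07, 0.72 and 0.59 on the log2 scale.

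**Figure D3:**
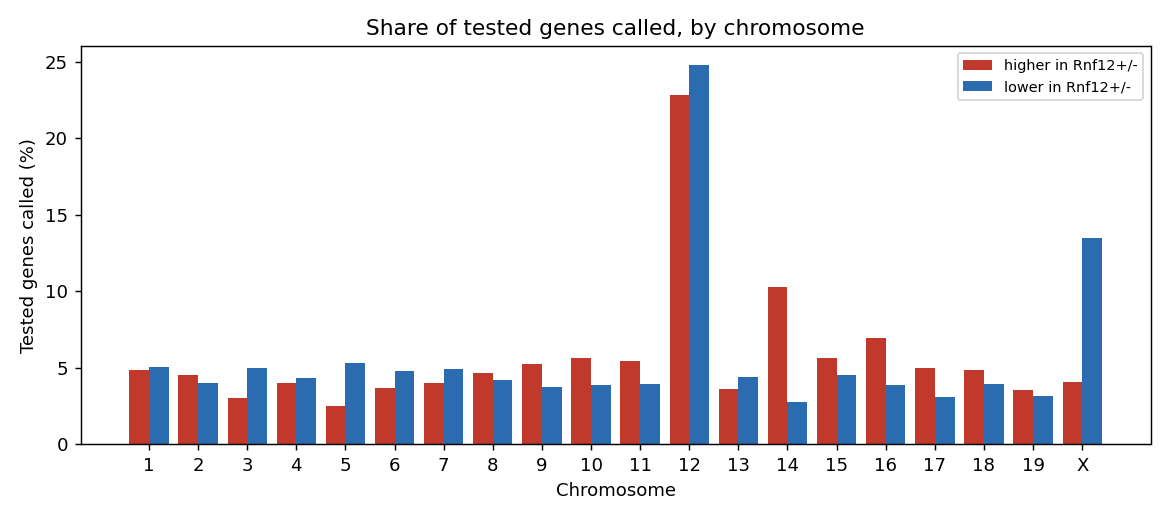
Percentage of the tested genes of each chromosome (horizontal axis) called higher (red) or lower (blue) in XX Rnf12+/-. Chromosome 12 reaches 22.8% higher and 24.8% lower, the X chromosome has 13.5% lower, and chromosome 14 has 10.3% higher.

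The Rhox cluster is a row of X-linked homeobox genes expressed in the germline and placenta, of which Rhox5 is the best studied and is known to be silenced by promoter methylation. Rhox5 was at 1248 and 1260 TPM in wild type and at 137 and 157 TPM in XX Rnf12+/-. The replicates lay close together and the groups far apart, and the change was -3.07 on the log2 scale (SE 0.0699, adjusted p = 1.09e-07). It was the gene that kept its call without the replicate block (adjusted p = 0.0196), and it had no allelic counts. Of the 34 Rhox genes in the annotation 6 passed the filter, and 16 had no count in any of the 4 libraries. Rhox6 fell from 171 and 358 TPM to 60.3 and 49.7 TPM (log2 fold change -2.17, adjusted p = 8.34e-04). Rhox9 fell from 51.3 and 110 TPM to 19.8 and 15.1 TPM (-2.11). Rhox1 fell from 24.5 and 42.7 TPM to 10.9 and 9.78 TPM (-1.66). Rhox13 and Rhox10 had values under 10 TPM and were not called, with log2 fold changes of -0.90 and 0.24. The Mus share of Rhox6 was 33.0% of 261 and 37.8% of 516 allelic counts in wild type, and 42.9% of 70 (95% Wilson interval 31.9 to 54.5%) and 36.5% of 52 (24.8 to 50.1%) in XX Rnf12+/-. Both alleles thus gave reads in each library.

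The list of germline genes that depend on promoter methylation for their silencing held 28 genes outside the Rhox cluster. Of 25 tested members, 14 were lower (56.0%, against 5.40% over all genes) and none was higher, and the median log2 fold change was -0.82, against 0.0064 over all genes. The groups did not overlap in 21 of the 25, against 37.3% of all genes. DESeq2 with the replicate block called 11 of them lower and none higher, and the fit without the block called none. Fkbp6, needed for meiosis and piRNA production, was at 17.8 and 30.5 TPM in wild type and 5.03 and 5.67 TPM in XX Rnf12+/- (log2 fold change -2.14, SE 0.197, adjusted p = 3.87e-04). Hormad1, a protein of unpaired meiotic chromosome axes, was at 40.5 and 62.3 TPM against 11.8 and 12.5 TPM (-2.04, SE 0.151, adjusted p = 1.49e-04). Tuba3a, a testis alpha-tubulin, was at 48.0 and 70.8 TPM against 16.6 and 21.9 TPM (-1.59, SE 0.118, adjusted p = 1.49e-04). In each the lowest wild-type library lay above the highest XX Rnf12+/- library. Tuba3a has a close copy, Tuba3b, which fell by 1.45 on the log2 scale, and reads may be split between them. Slc25a31, the testis ADP/ATP carrier, was low throughout (1.92 and 3.38 against 0.998 and 0.613 TPM, log2 fold change -1.68). The germ cell RNA-binding genes Dazl and Ddx4 fell by 1.34 and 0.83. Sycp3, of the synaptonemal complex, was at 33.3 and 74.1 TPM against 32.5 and 53.4 TPM and was not called, and D1Pas1, Dpep3 and Rpl10l had log2 fold changes above 0 without a call.

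The promoters of germline genes of this kind are known to be bound by a repressive Polycomb complex that reads the E-box CACGTG through its MGA and MAX subunits and the motif GCGGGAA through E2F6. The 250 bases before the start of the 4 germline genes with the largest called changes are shown as examples, from RefSeq on GRCm38.p6, 5′ to 3′ on the gene's strand, with matches to either motif on either strand in capitals.
Fkbp6, chr5:135350045-135350294, minus strand: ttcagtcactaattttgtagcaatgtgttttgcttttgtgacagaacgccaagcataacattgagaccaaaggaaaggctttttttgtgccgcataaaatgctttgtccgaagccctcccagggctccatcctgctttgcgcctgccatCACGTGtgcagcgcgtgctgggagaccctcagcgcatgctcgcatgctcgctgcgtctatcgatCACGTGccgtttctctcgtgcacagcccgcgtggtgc
Hormad1, chr3:95559427-95559676, plus strand: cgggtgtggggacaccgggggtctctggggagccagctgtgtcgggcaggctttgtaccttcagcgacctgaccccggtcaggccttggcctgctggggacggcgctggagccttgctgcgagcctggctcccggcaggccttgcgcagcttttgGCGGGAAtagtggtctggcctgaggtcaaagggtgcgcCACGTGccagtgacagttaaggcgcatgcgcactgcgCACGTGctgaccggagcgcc
Slc25a31, chr3:40708621-40708870, plus strand: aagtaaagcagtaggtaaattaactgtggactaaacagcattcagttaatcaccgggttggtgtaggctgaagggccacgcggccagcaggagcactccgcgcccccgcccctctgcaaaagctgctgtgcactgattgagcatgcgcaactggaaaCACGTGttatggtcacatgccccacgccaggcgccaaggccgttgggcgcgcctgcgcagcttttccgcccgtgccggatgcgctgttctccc
Tuba3a, chr6:125286082-125286331, minus strand: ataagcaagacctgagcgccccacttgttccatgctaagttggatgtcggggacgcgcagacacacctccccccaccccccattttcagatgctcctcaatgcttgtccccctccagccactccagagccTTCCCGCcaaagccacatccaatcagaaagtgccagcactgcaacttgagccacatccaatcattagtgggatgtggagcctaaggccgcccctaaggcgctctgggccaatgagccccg
Fkbp6 and Hormad1 each held the E-box at more than 1 position, and Hormad1 also the E2F motif. Slc25a31 held the E-box once, and Tuba3a held the E2F motif on the opposite strand. Of the 28 genes of the list, 26 were matched to a promoter, and 12 of these held the E-box (46.2%) and 6 the E2F motif (23.1%). Over all 27025 promoters of the same length the shares were 6.05% and 3.84%, and over the promoters of tested protein-coding genes 8.38% and 6.94%. Within the list, 7 of the 12 matched genes called lower held an E-box, as did 5 of the 11 not called. The number of CG pairs in the window was 17.5 at the median in the genes called lower and 11 in those not called, with ranges of 8 to 31 and 6 to 21. A match describes the letters and says nothing of binding.

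**Figure D4:**
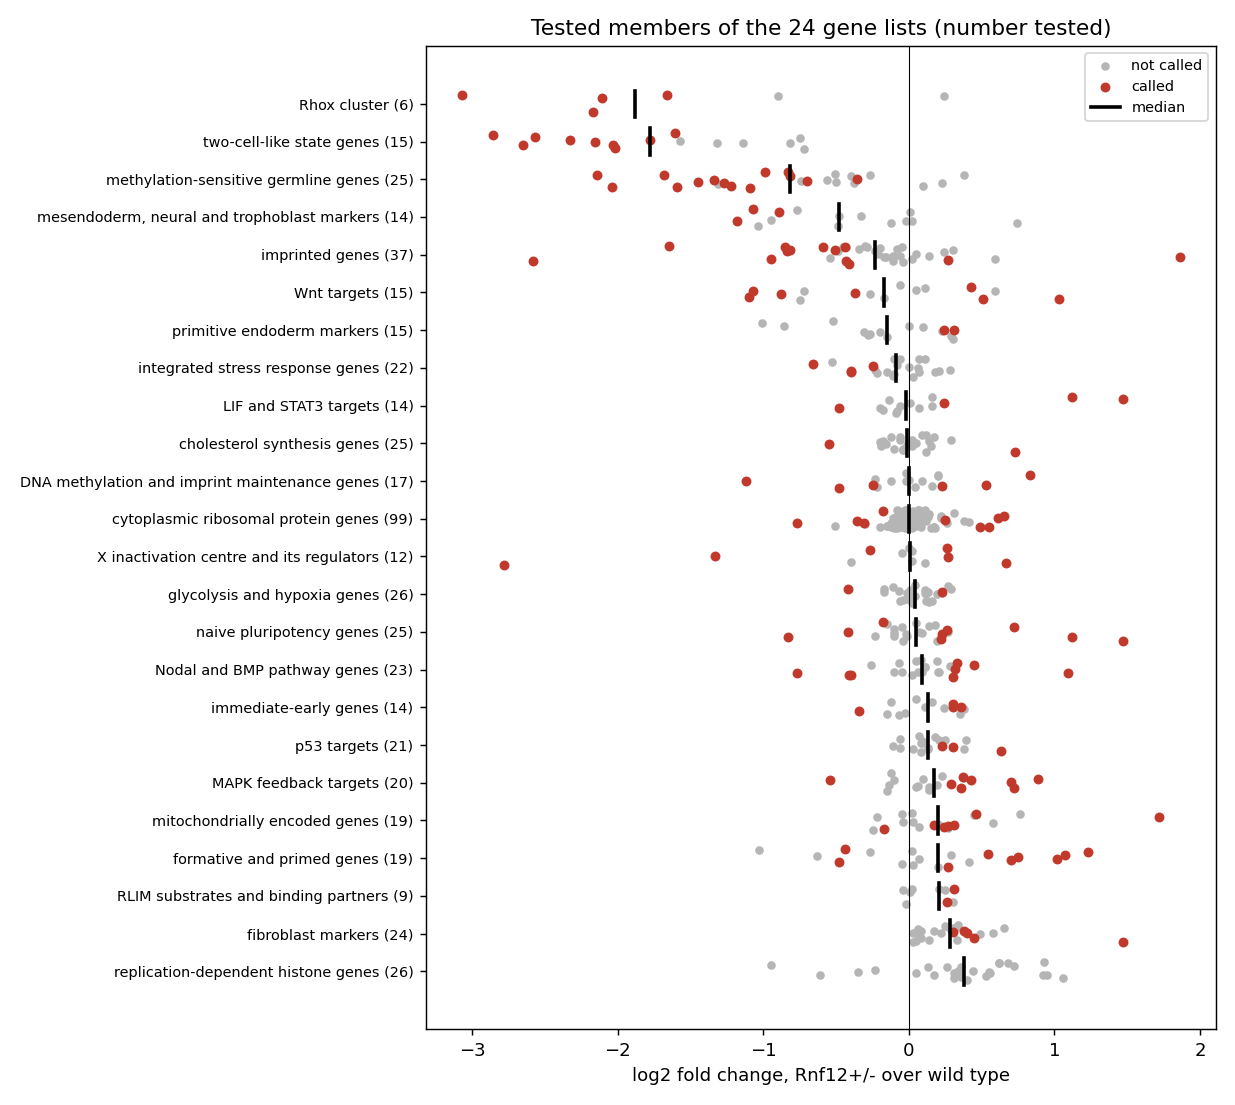
log2 fold change of XX Rnf12+/- over XX wild type (horizontal axis) for each tested member of the 24 gene lists (rows, number tested in brackets), with called genes in red, others in grey and the list's median as a black bar. The Rhox, two-cell-like and germline lists lie furthest to the left, with medians of -1.88, -1.78 and -0.82.

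Genes of the two-cell-like state, a rare and transient condition in mESC cultures that resembles the totipotent embryo, had lower values as well. All 15 tested members had a log2 fold change below 0, 9 were called lower (60.0%, against 5.40% over all genes), and the median was -1.78. Outside chromosome 12, 7 of 12 were lower. With DESeq2 and the block 6 were called lower. The count filter can be met by either group alone, and Tdpoz4, Tcstv3 and Usp17ld met it through wild type only. For such members a value below 0 is partly fixed by the filter. With every gene of at least 1 count kept, 22 members were tested, 0 were called and the median was -1.89. With at least 50 counts in 2 libraries, 8 were tested and 6 called lower, with a median of -1.9. In bulk RNA, fewer cells in this state and less RNA per cell cannot be told apart. The list summed to 74.6 and 78.7 TPM in wild type and to 29.9 and 13.3 TPM in XX Rnf12+/-. Tcstv3, which takes part in telomere lengthening, was at 3.15 and 5.95 TPM against 0.629 and 0.837 TPM (log2 fold change -2.57, adjusted p = 0.0124). Tdpoz4 fell by 2.86, Gm4340 by 2.65 and Usp17ld by 2.33 on the log2 scale. The Zscan4 genes, which define the state, were not called, with log2 fold changes of -1.57 to -0.82 at levels under 5 TPM. These families are multicopy, so values of single members are uncertain. Pramel7, a PRAME-family gene of the inner cell mass that is known to lower UHRF1 protein, was not on the list and moved likewise, from 27.8 and 11.3 TPM to 4.44 and 1.60 TPM (log2 fold change -2.66, adjusted p = 1.47e-04).

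Imprinted genes are expressed from 1 parental copy under the control of allele-specific methylation. Of 37 tested, 11 were called lower (29.7%, against 5.40% over all genes) and 2 higher (5.41%, against 5.38%), with a median log2 fold change of -0.23. H19, a maternally expressed non-coding RNA, was at 281 and 491 TPM in wild type and 121 and 112 TPM in XX Rnf12+/- (log2 fold change -1.65, SE 0.169, adjusted p = 6.30e-04). Its Mus share was 63.1% of 528 and 56.1% of 984 allelic counts in wild type, and 71.8% of 241 (95% Wilson interval 65.8 to 77.1%) and 66.7% of 195 (59.8 to 72.9%) in XX Rnf12+/-. Both alleles were thus read in every library. Peg12 fell by 0.95 and Xlr3b by 2.58. Xlr3b met the count filter through wild type only, so its direction is partly fixed by the filter. Peg13, a paternally expressed non-coding RNA, went the other way, from 2.32 and 1.56 TPM to 7.68 and 6.07 TPM (log2 fold change 1.86, adjusted p = 5.53e-04). Mirg and Rian, of the Dlk1-Meg3 cluster, lie on chromosome 12 and fell by 0.59 and 0.44 together with their neighbours there. Outside chromosome 12 the counts were 9 lower and 2 higher of 33.

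The enzymes that write and read methylation moved in both directions, with 3 higher and 3 lower of 17. Each was 17.6% of the list, against 5.38% higher and 5.40% lower over all genes. Dnmt3l, the catalytically inactive partner of the de novo methyltransferases, was at 426 and 456 TPM in wild type and 168 and 235 TPM in XX Rnf12+/- (log2 fold change -1.12, SE 0.0803, adjusted p = 1.47e-04). Dnmt3b, a de novo methyltransferase, fell from 176 and 180 TPM to 130 and 122 TPM (-0.48, adjusted p = 0.00131). Tet2, which oxidises methylcytosine, rose from 33.7 and 25.4 TPM to 49.2 and 53.3 TPM (0.83, adjusted p = 0.00125). Zfp57, which protects imprints, rose by 0.53. The maintenance genes Dnmt1 and Uhrf1 were not called, at 205 and 204 against 199 and 201 TPM for Dnmt1. Methylation itself was not measured in these libraries.

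The core pluripotency genes stayed expressed in all 4 libraries. Pou5f1 was at 1754 and 1612 TPM in wild type and 1893 and 1958 TPM in XX Rnf12+/-, a small rise (log2 fold change 0.22). Nanog was at 1089 and 1064 against 926 and 938 TPM, a small fall (-0.18). Of 25 naive pluripotency genes 6 were higher and 3 lower, with a median of 0.05. Klf4, a naive transcription factor induced by LIF, rose from 303 and 266 TPM to 542 and 672 TPM (log2 fold change 1.12, SE 0.0938, adjusted p = 2.63e-04). Gbx2 rose from 10.1 and 5.95 TPM to 24.3 and 18.9 TPM (1.47, SE 0.158, adjusted p = 7.44e-04). Nr0b1, an X-linked nuclear receptor, rose from 412 and 310 TPM to 574 and 579 TPM (0.72). Fbxo15, an OCT4 target, fell from 277 and 294 TPM to 152 and 164 TPM (-0.83, adjusted p = 9.53e-05). The groups did not overlap in any of these 4. Over the list they did not overlap in 12 of the 25, against 37.3% of all genes.

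Formative and primed genes, which come up as cells leave the naive state, moved in both directions. Of 19 tested, 7 were higher (36.8%, against 5.38% over all genes) and 2 lower (10.5%, against 5.40%), with a median of 0.20. Sox3 rose from 21.3 and 13.9 TPM to 41.0 and 31.0 TPM (log2 fold change 1.07, adjusted p = 8.30e-04), Tcf15 from 47.8 and 32.5 to 79.4 and 79.3 TPM (1.02) and Sox4 by 0.75. Otx2 and Dnmt3b fell by 0.44 and 0.48, and Fgf5, the best known primed marker, was at 17.2 and 22.0 against 19.0 and 6.65 TPM without a call. Of 14 mesendoderm, neural and trophoblast markers 3 were lower (21.4%, against 5.40% over all genes) and none higher. Among the falls were the mesoderm gene T, from 14.5 and 18.7 TPM to 8.40 and 7.11 TPM (-1.07), and Mixl1 (-1.18). Of 15 primitive endoderm markers 2 were higher (13.3%, against 5.38% over all genes), Lama1 (0.24) and Lamb1 (0.31). Lamb1 lies on chromosome 12 among genes that rose there. The defining genes Gata6, Gata4 and Sox17 stayed under 5 TPM in every library.

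Of 20 targets of the FGF-MAPK pathway 7 were called higher (5.38% over all genes) and 1 lower (5.40% over all genes), with a median of 0.17. Spry4, a feedback inhibitor of the pathway, was at 96.5 and 47.2 TPM in wild type and 166 and 91.7 TPM in XX Rnf12+/-. The groups overlapped, since replicate 1 was the higher library in both, but each pair rose, by 0.82 and 0.97 on the log2 scale (log2 fold change 0.89, SE 0.0651, adjusted p = 1.49e-04). Etv4, an ETS factor downstream of FGF, rose from 60.3 and 43.6 TPM to 90.0 and 74.1 TPM (0.70). Etv1 rose by 0.72 and lies on chromosome 12. Dusp4, a MAPK phosphatase, was the member that fell, from 167 and 130 TPM to 115 and 85.9 TPM (-0.54, adjusted p = 0.00125). DESeq2 with the block called 4 higher and 1 lower, and the fit of all 30 libraries none. The groups did not overlap in 3 of the 20, a smaller share than the 37.3% over all genes. The fibroblast markers moved the same way (summed 1933 and 671 against 2633 and 772 TPM), and their part in the result was not tested.

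Among 14 LIF and STAT3 targets, 3 were higher (Gbx2, Klf4 and Pim3) and 1 lower, Pim1, a kinase gene that fell by 0.48. The shares were 21.4% and 7.14%, against 5.38% and 5.40% over all genes. Of 15 Wnt targets 3 were higher (20.0%) and 4 lower (26.7%), against 5.38% and 5.40% over all genes, with a median of -0.17. The direct target Axin2 fell from 10.8 and 15.8 TPM to 6.41 and 7.70 TPM (log2 fold change -0.88, adjusted p = 0.00254), and Sp5 from 3.90 and 9.74 to 1.48 and 4.81 TPM (-1.10), whereas Notum, a secreted Wnt inhibitor, rose from 34.4 and 20.3 to 63.7 and 44.5 TPM (1.03, adjusted p = 4.92e-04). Of 23 Nodal and BMP pathway genes 5 were higher (21.7%) and 3 lower (13.0%), against 5.38% and 5.40% over all genes. Inhbb, an activin subunit, rose by 1.09 and the BMP inhibitor Smad6 fell by 0.77. Id1 and Id3, both BMP targets, were called in opposite directions, with log2 fold changes of 0.45 and -0.41.

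Of 21 p53 targets 3 were higher (14.3%, against 5.38% over all genes), Perp, Btg2 and Eda2r, with log2 fold changes of 0.63, 0.30 and 0.23, and DESeq2 with the block called none of the 21. Of 22 integrated stress response genes 4 were lower (18.2%, against 5.40%), led by Ddit4, at 166 and 477 TPM in wild type and 97.8 and 311 TPM in XX Rnf12+/- (-0.66, adjusted p = 4.95e-04). Ddit4 also differed between replicates within each group, by more than between the groups. DESeq2 with the block called 1 of the 22 lower. The groups did not overlap in 1 of the 22, against 37.3% of all genes. Of 25 cholesterol synthesis genes 1 was higher and 1 lower, each 4.0% and near the shares over all genes (5.38% and 5.40%). The one that fell was the X-linked Ebp, from 186 and 149 TPM to 118 and 105 TPM (-0.55). Of 26 glycolysis and hypoxia genes, Slc2a3 was higher (0.23) and Bnip3 lower (-0.42), each 3.85% of the list and near the shares over all genes. Among 14 immediate-early genes Myc, Btg2 and Ier2 were higher (21.4%, against 5.38%) and Klf6 lower (7.14%, against 5.40%), all by less than 0.4 on the log2 scale. Of 26 replication-dependent histone genes none was called in edgeR, with a median of 0.38, and polyadenylated libraries hold few of these RNAs.

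Of 99 cytoplasmic ribosomal protein genes, matched by symbol, 5 were higher (5.05%) and 4 lower (4.04%), and the median was 0. Over all genes 5.38% were higher and 5.40% lower. The 4 with the largest changes were on chromosome 12. Rps29 rose by 0.61, Rpl36al by 0.65 and Rps7 by 0.55, and Rps6kl1, a kinase gene caught by the symbol match, fell by 0.77. Outside chromosome 12, 2 of 93 were higher and 2 lower. Of 19 mitochondrially encoded genes 6 were higher (31.6%, against 5.38% over all genes) and 1 lower (5.26%, against 5.40%). mt-Cytb was at 6148 and 5288 TPM against 7818 and 6133 TPM, so that the groups overlapped, and mt-Nd3 rose by 1.72 at a low level. Gm42418, a non-coding locus known to collect ribosomal RNA reads and picked out after its values were seen, was at 12778 and 12593 TPM against 26724 and 19538 TPM (log2 fold change 0.88). Its part in these results was not tested.

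Outside the lists and outside chromosome 12, the largest rise among expressed protein-coding genes was that of Vax2, a homeobox gene of the developing eye. It rose from 3.69 and 6.05 TPM to 27.1 and 55.1 TPM (log2 fold change 3.09, SE 0.186, adjusted p = 7.56e-05). Gpr83, a neuropeptide receptor gene, rose from 2.35 and 0.847 TPM to 10.6 and 5.09 TPM (2.33, SE 0.189, adjusted p = 2.16e-04). Atp2a3, a calcium pump of the endoplasmic reticulum, rose from 4.99 and 6.99 TPM to 14.1 and 31.8 TPM (1.92, SE 0.150, adjusted p = 1.93e-04). Its Mus share was 51.2% of 41 and 42.7% of 103 allelic counts in XX Rnf12+/-, so the reads came from both alleles. Skida1, Ankrd34a and Ripply3 rose by 1.98, 1.98 and 1.75, from wild-type levels under 6 TPM. Tmem132d, Slc32a1, which loads inhibitory transmitters into vesicles, Shisal2b, Ctxn3 and Gm8104 were also among the 12 largest rises, with log2 fold changes of 2.26, 2.03, 1.91, 1.82 and 1.75 and levels under 6 TPM in all 4 libraries. Among the largest falls outside the X chromosome, besides Pramel7 and Tdpoz4, were BC147527 (-3.60), Dnajc5g (-3.45) and Srarp (-2.69), each under 8 TPM in wild type.

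Chromosome 12 differed from the rest of the genome. Of its 641 tested genes 146 were higher (22.8%) and 159 lower (24.8%), against 4.69% and 4.64% outside it. The direction depended on position. From the start to 75 Mb, a border chosen after the values were seen, 143 of 301 tested genes were higher and 0 lower, with a median log2 fold change of 0.49. Of the 170 protein-coding genes above 5 TPM in this stretch, 166 had a value above 0. From 75 Mb to the end, 159 of 340 tested genes were lower and 3 higher, with a median of -0.39. DESeq2 with the block called 194 genes of the chromosome.

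The allelic counts differed between these stretches too. In the first, the Mus share was 48.5% of 26366 and 47.2% of 27025 allelic counts in wild type, and 64.2% of 35415 and 63.6% of 37294 in XX Rnf12+/-. In the second it was 26.3% of 79573 and 24.6% of 83683 in wild type, and 66.7% of 57390 and 65.5% of 60717 in XX Rnf12+/-. So the Mus share of the wild-type libraries was lower in the second stretch than in the first. That of the XX Rnf12+/- libraries was above 60% in both. Between 60 and 70 Mb the share dipped in both groups, to 37.7% and 34.9% in wild type and 55.0% and 53.1% in XX Rnf12+/-. Rps29, of this chromosome, gave 3 Mus of 976 and 5 of 1257 allelic counts in wild type. In XX Rnf12+/- it gave 12 of 1009 and 9 of 1153, and its part in the dip was not tested. Over each other autosome the share was between 45.8% and 56.5% in every library. DNA copy number was not measured in these data, so copy number and expression per copy cannot be told apart here. In the deletion lines made from the first Rnf12+/- founder, the 16 libraries other than deletion E had Mus shares of 62.2 to 63.7% and 64.7 to 65.7% in these stretches, whereas the 4 libraries from the second founder (deletions J and I-TEL) had 45.9 to 48.5% and 24.8 to 25.8%. The 2 deletion E libraries had 63.4 and 63.9%, and 66.5 and 66.5%.

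**Figure D5:**
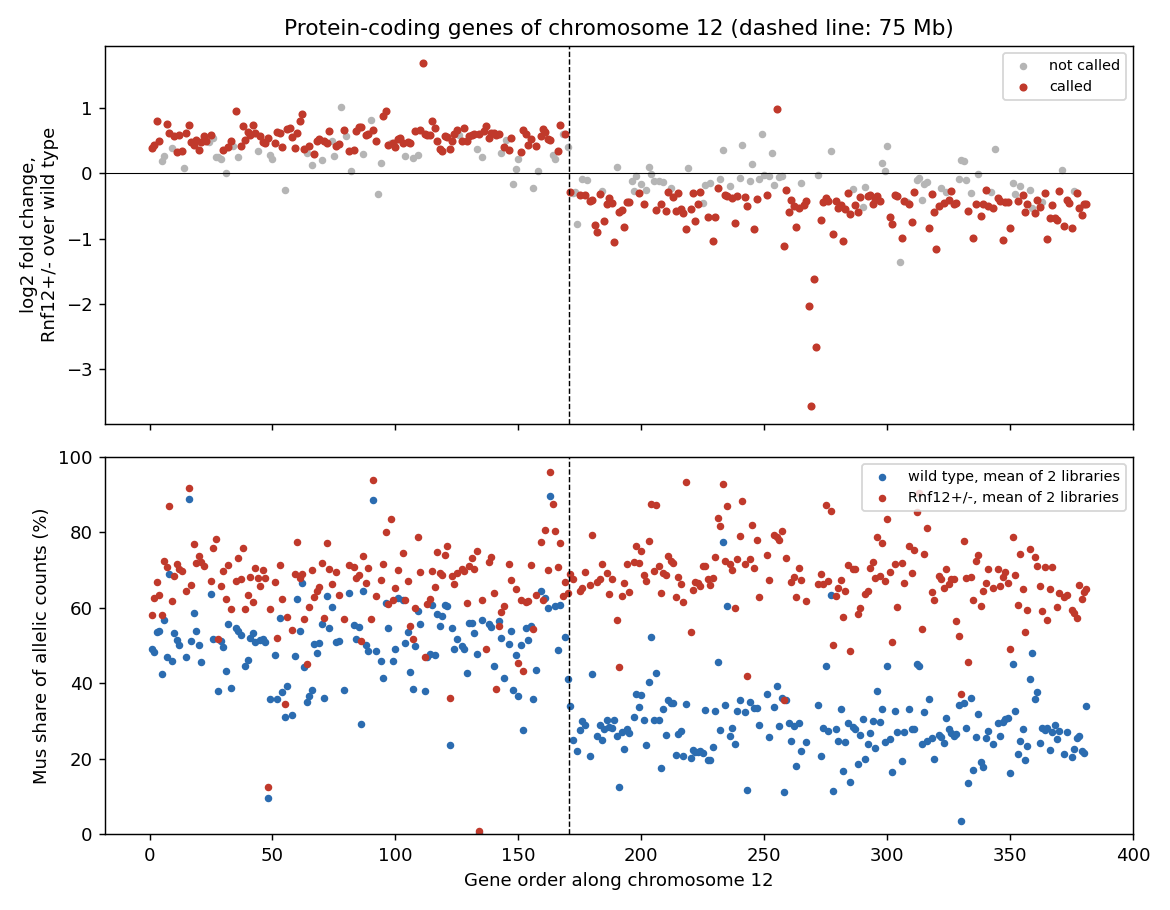
Protein-coding genes of chromosome 12 above 5 TPM in their order along the chromosome (horizontal axis), with the log2 fold change of XX Rnf12+/- over XX wild type above (called genes in red) and the Mus share of allelic counts below (percent, mean of the 2 libraries of a group, wild type in blue and XX Rnf12+/- in red, genes with at least 20 allelic counts in each library). At the dashed line, 75 Mb, the changes turn from a median of 0.50 to one of -0.41, and the wild-type Mus share drops.

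Lpin1, a phosphatidate phosphatase in the first stretch, rose from 11.1 and 14.3 TPM to 20.2 and 28.6 TPM (log2 fold change 0.96, adjusted p = 2.16e-04), and its Mus share went from 50.4% of 115 and 58.9% of 151 to 69.1% of 204 and 65.2% of 319 allelic counts. Srp54c, in the same stretch and one of several close copies, rose by 1.69. Irf2bpl, against the direction of most genes around it, was one of the 3 called higher in the second stretch, from 84.5 and 57.9 TPM to 140 and 133 TPM (0.99, adjusted p = 4.96e-04), with a Mus share of 45.2% of 208 and 33.1% of 124 in wild type and 77.9% of 289 and 79.7% of 286 in XX Rnf12+/-. The largest falls, in Gm16368, Gm5788 and Serpina3m, had log2 fold changes of -3.57, -3.52 and -3.00 and started from wild-type levels under 15 TPM.

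Chromosome 14 showed a smaller shift. Of 580 tested genes 60 were higher (10.3%) and 16 lower (2.76%), with a median log2 fold change of 0.08. Its Mus share was 50.7% and 49.4% in wild type and 49.2% and 45.8% in XX Rnf12+/-, the lowest of the autosomes other than 12 in XX Rnf12+/- replicate 2. Copy number was not measured for this chromosome either.

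Other lines of the series place some of these values. Rhox5 was at 192 and 277 TPM in deletion E, which descends from the first founder and shares the library name prefix of XX Rnf12+/-. Under another prefix it ranged from 31.1 to 706 TPM, with a median of 263, over 13 libraries from the first founder whose deletion spares the gene, and from 673 to 1089 TPM over 4 libraries from the second founder. The two-cell-like list summed to 45.2 and 63.0 TPM in deletion E, to 2.47 to 32.5 TPM over 16 libraries of the first founder and to 69.8 to 108 TPM over 4 of the second. Klf4 was at 419 and 519 TPM in deletion E, at 324 to 849 TPM in the first founder's lines and at 318 to 379 TPM in the second's. The autosomal members of the germline list (24 genes) summed to 673 and 822 TPM in wild type, 498 and 522 TPM in XX Rnf12+/-, 550 and 636 TPM in deletion E, 403 to 855 TPM in the first founder's lines and 428 to 571 TPM in the second's. The second founder's lines are also Rnf12+/- but have another library name prefix. Rhox5 and the two-cell-like list were thus nearer to wild type there than in XX Rnf12+/-. The germline sum was at the XX Rnf12+/- level, but its members differed. Of the 4 with the largest called changes, Fkbp6 was at 8.46 to 22.2 TPM and Tuba3a at 25.8 to 51.1 TPM, above both XX Rnf12+/- libraries. Hormad1, at 10.0 to 25.3 TPM, and Slc25a31, at 0.469 to 2.12 TPM, ranged from below to above them. None of this was tested, and founder, library set and added deletion cannot be told apart.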

How the data were processed

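Polyadenylated RNA was sequenced as stranded paired reads of 50 bases. The submitters' processing notes list Trim Galore 0.6.7, HISAT2 2.2.1, SAMtools 1.10 and HTSeq 0.12.4 on mm10, while the study's methods name featureCounts for counting and SNPsplit for assigning reads to alleles, so the counter is not certain. The authors deposited 1 table of counts for 55421 genes, not normalized, with total, Mus and Cast counts per library. Of these, 55240 genes were matched to GENCODE M21 and the other 181 held at most 0.004% of a library's counts. Allelic counts cover only reads over strain-specific bases, so low genes have wide intervals.

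Genes that reached 10 counts in 2 or more libraries were tested with edgeR 4.0.16 (quasi-likelihood, TMM, replicate number as a block, 1 residual degree of freedom) and R 4.3.3, with Benjamini-Hochberg adjustment over all tested genes. A gene was called at an adjusted p under 0.05. An exact permutation test of 2 against 2 libraries cannot go below p = 0.333 and was not used. In the study's labels both groups carry replicate numbers 1 and 2, but no shared day or culture is stated, so the pairing is not given by the design. The block was part of the comparison as set, and same-numbered libraries deviated together (correlation 0.737 in the 1 check that 2 pairs allow). The common dispersion was 0.00445 with the block and 0.0439 without it. In simulated data for this comparison (16944 genes) the blocked test called 94 of 100 genes changed by 1 on the log2 scale. It called all 100 changed by 2 and 16 of 16744 unchanged genes, and the test without the block called 10, 62 and 0. The simulated counts took their means from each replicate pair and their spread from the blocked fit. They therefore cannot show whether the pairing holds, and the 16 applies only if it does.

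DESeq2 1.42.0, other scalings, filters and fits were tried as alternatives. The members and the 24 gene lists were chosen with earlier results of these data known. Named genes were Rlim, Rhox5 and Xist, the 12 largest rises and 12 largest falls among called protein-coding genes outside chromosome 12 (at least 2 TPM in the higher group, same direction in both pairs), up to 4 called genes per list (or the 2 highest where none was called), the 3 largest rises and falls of chromosome 12, genes within 1 Mb of Rlim and up to 5 rises and falls on the X chromosome. Other list members named were chosen after their values were seen. Results of a few genes that these rules name are not reported here.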

Additional observations from a re-analysis of the deposited data

How the results depend on the processing

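The number of called genes rested on pairing the libraries by replicate number. The edgeR fit without the replicate block called 1 gene in place of 1826. It called 1 of 420 beyond 1 on the log2 scale, 1 of 130 list members and 0 of 305 on chromosome 12. With that fit 1511 genes had an unadjusted p under 0.05. All 1826 kept their direction, which the use of the same 4 balanced libraries largely fixes. DESeq2 called 660 genes with the block (159 beyond 1, 72 list members, 194 on chromosome 12) and 269 without it (114, 33 and 100). A fit of all 30 libraries with no block called 734 genes, 704 of them among the 1826, and 45 list members. Keeping every gene with at least 1 count gave 0 calls in all 4 counts with edgeR (3960 genes at an unadjusted p under 0.05), and 1174 with edgeR's legacy fit, an alternative chosen after seeing the data. Keeping genes with at least 50 counts in 2 libraries gave 252 beyond 1. Scaling factors of DESeq2, factors from autosomal genes outside chromosome 12 and the legacy fit kept every count within 1.5 times. Leaving out 1 library at a time, with no block, gave 0 to 1 called genes, 0 to 1 beyond 1, 0 to 1 list members and 0 on chromosome 12, the 0 without XX wild type replicate 2, where 651 genes had an unadjusted p under 0.05 in edgeR.

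Of 109 named called genes, 97 had the same sign in every fit. The direction turned when 1 library was left out without the block, which leaves the numbers unbalanced between the groups. Among called genes this gave 0.25 and 0.36 for Bnip3, 0.33 for Ddit4, -0.15 for Fn1, -0.05 for Id1, -0.47 for Lum, -0.03 and -0.02 for Mmp2, -0.08 and -0.01 for Myc, 0.04 and 0.15 for Psat1, -0.15 and -0.02 for Slc2a3, -0.13 for Spen, 0.14 and 0.16 for Stc2 and 0.07 and 0.24 for Trib3. Among genes not called it gave 0.02 for Chic1, 0.21 for Ftx, 0.60 for Gm38020, 0.22 and 0.36 for Gm6222, 0.41 for Gm9143, -0.61 and -0.27 for Hist1h1c, -0.76 and -0.01 for the log2 fold change of Hist1h2bc, -0.40 for Jpx, 0.02 for Nap1l2, -0.95 and -0.26 for Rps12-ps1, 0.13 for Tsx and -0.07 and -0.05 for Vcp-rs. The 2 pairs leave 1 residual degree of freedom, and allelic shares of genes with few allelic counts are limited by depth.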
